A study of Mus musculus with 203 samples.

Results

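The glucocorticoid receptor gene Nr3c1 and 9 genes known as targets or partners of the receptor (Fkbp5, Tsc22d3, Per1, Zbtb16, Dusp1, Klf9, Sgk1, Hsd11b1 and Cdkn1a) were followed in mouse lung by RNA sequencing. These 10 genes, chosen by name, were found by symbol among the 43346 Ensembl identifiers of the deposited gene table, and all 10 passed the filter on low counts at both time points. The table holds 160 libraries at 11 weeks and 43 at 3 weeks, in 20 groups. All mice were female BALB/c, aged 18-20 weeks by the labels, and airway and parenchyma were separated by blunt dissection of the lung.

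At 3 weeks, mice had received house dust mite extract (HDM), an allergen, or phosphate buffered saline (PBS) into the nose on 5 days of each week, which gave 11 PBS and 10 HDM airway libraries and 12 PBS and 10 HDM parenchyma libraries. At 11 weeks, PBS or HDM was combined with normal air (AIR) or with cigarette smoke (CS). HDM was given on 5 days of each week for the first 3 weeks and 3 times weekly from week 4. Mice of the smoke groups were exposed 2 times a day on 5 days a week for 8 weeks. Separate mice of each of these 4 exposures were treated with the synthetic glucocorticoid dexamethasone (DEX) during week 11, so that PBS.AIR, HDM.AIR, PBS.CS and HDM.CS each had a DEX counterpart (PBS.AIR.DEX and so on), with 10 libraries per group and tissue. Groups without DEX are described only by their exposure, and no vehicle is named for them. The dose and route of DEX, the interval from the last dose to sampling and the hour of sampling are not given in the sources used here. The labels do not tie libraries to single mice, so the p-values measure the spread between these libraries, which may be technical in part.

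Levels are given as CPM, the counts of a gene scaled to a common library size with TMM factors, always as lowest, median and highest of a group. Group differences are log2 differences from limma-voom models fitted to all genes, with standard errors (SE) and Benjamini-Hochberg adjusted p-values over all genes tested (18250 at 11 weeks, 17381 at 3 weeks). A gene was called changed at an adjusted p-value under 0.05, and for each comparison the percentage of all tested genes that were called is given. Library totals ranged from 13003087 to 40240680 counts (median 28090612), and the counts of single members from 49 (Zbtb16) to 15686 (Tsc22d3).

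The glucocorticoid receptor, encoded by Nr3c1, is a ligand-activated transcription factor that rests in the cytosol with heat shock proteins. After it binds corticosterone, the natural hormone of mice, or DEX, it moves to the nucleus and binds glucocorticoid response elements near its targets. Corticosterone rises and falls daily, and several targets follow that rhythm. In the lung, glucocorticoids restrain inflammation, and Tsc22d3 (also called Gilz) and Dusp1, a phosphatase that switches off MAP kinases, are the targets most often cited for this. Fkbp5, a co-chaperone that lowers the receptor's affinity for hormone, forms a feedback loop, and Hsd11b1 regenerates active hormone from its inactive keto form inside cells.

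Promoter sequences of the members are shown first. Whether the elements near their start sites relate to how the members moved was not tested. RefSeq promoter windows of GRCm38.p6, each 300 bases long (250 before and 50 after a start site), were matched to 8 of the 10 members, with 17 windows in all. The windows of Nr3c1 and Zbtb16 are not shown here. Both strands were searched for the full glucocorticoid response element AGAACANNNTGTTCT, its half-site AGAACA, the E-box CACGTG to which clock factors bind, and the cAMP response element TGACGTCA. The full element was found in 3 of 32851 windows (0.00913%), 1 of them a window of Sgk1. The half-site was in 19.0% of windows, the E-box in 7.15% and the cAMP response element in 1.79%. The 250 bases before the start site are printed 5′ to 3′ on the gene's strand for 5 members, with these elements in capitals.
Sgk1 (chr10:21993640-21993889, plus strand): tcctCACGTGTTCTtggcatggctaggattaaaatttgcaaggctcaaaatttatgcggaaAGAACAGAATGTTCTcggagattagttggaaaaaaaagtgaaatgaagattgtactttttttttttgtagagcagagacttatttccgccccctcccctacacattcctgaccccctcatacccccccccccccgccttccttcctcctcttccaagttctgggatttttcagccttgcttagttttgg
Per1 (chr11:69098699-69098948, plus strand): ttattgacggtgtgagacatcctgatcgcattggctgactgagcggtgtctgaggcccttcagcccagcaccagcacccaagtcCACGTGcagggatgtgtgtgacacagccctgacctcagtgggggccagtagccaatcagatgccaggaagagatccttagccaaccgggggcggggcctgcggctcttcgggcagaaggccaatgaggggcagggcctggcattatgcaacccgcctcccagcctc
Dusp1 (chr17:26508473-26508722, minus strand): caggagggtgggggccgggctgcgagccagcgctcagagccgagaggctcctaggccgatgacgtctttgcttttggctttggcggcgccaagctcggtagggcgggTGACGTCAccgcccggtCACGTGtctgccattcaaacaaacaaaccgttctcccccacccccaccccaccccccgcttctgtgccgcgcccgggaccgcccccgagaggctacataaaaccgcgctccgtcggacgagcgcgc
Fkbp5 (chr17:28486150-28486399, minus strand): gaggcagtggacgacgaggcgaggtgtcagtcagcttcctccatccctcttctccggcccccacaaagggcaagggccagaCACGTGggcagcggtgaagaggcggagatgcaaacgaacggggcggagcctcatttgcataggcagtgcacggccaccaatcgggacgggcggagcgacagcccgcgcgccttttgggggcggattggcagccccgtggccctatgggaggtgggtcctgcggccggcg
Tsc22d3 (chrX:140600523-140600772, minus strand): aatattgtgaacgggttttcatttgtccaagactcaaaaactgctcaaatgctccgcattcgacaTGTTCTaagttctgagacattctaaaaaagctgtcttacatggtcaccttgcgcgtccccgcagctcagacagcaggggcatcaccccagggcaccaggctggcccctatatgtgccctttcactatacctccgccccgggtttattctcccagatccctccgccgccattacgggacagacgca
In the Sgk1 window the full element starts at base 62 and includes a half-site on each strand, and a further half-site on the minus strand starts at base 9 and overlaps an E-box that starts at base 5. The E-boxes of Per1 and Fkbp5 start at bases 85 and 82, and the Dusp1 window holds the cAMP response element and, after it, an E-box. The Tsc22d3 window holds a half-site on the minus strand at base 66. The half-site was also found in 2 of the other 5 Sgk1 windows. None of these motifs was found in the windows of Klf9, Hsd11b1 and Cdkn1a, in the other Per1 window or in the other Tsc22d3 windows, which says only that these letters are not there.

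A group of 8 DEX libraries stood apart. Libraries are known by codes from X1 upward in the labels, and these are X151 and X152 (HDM.AIR.DEX), X159 and X160 (HDM.CS.DEX), X167 and X168 (PBS.AIR.DEX) and X175 and X176 (PBS.CS.DEX), 1 airway and 1 parenchyma library in each exposure. In each of them 1 to 4 members lay far above the rest of the group, Fkbp5 in 5 of the 8, Zbtb16 in 5 and Tsc22d3 in 3. They were noticed after the values were seen. The called DEX differences are given with and without them. Since they were picked for high values, leaving them out lowers the DEX levels of those members by construction and is no independent check. Untreated libraries in which a member stood high, such as X97, X98 and X133, were kept.

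Treatment with DEX in otherwise unexposed mice (PBS.AIR) was followed by lower, not higher, levels of 3 textbook targets of the receptor, Tsc22d3, Per1 and Zbtb16, in both tissues. Fkbp5, commonly used as a readout of glucocorticoid exposure, did not pass the test with DEX in any exposure or tissue. The members called in PBS.AIR airways were these 3 (3 of 10, with 14.9% of all genes called), of which Per1 and Zbtb16 were no longer called with sample quality weights. In PBS.AIR parenchyma, 5 of 10 were called (22.6% of all genes), with Nr3c1 lower and Sgk1 higher in addition.

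Tsc22d3, a leucine zipper protein that binds and restrains NF-kappaB and AP-1, had levels of 103.5, 183.6 and 391 CPM in PBS.AIR airways and of 52.9, 78.9 and 264 CPM with DEX. In the parenchyma it had 126.1, 285 and 556 CPM without DEX and 82.2, 96.03 and 347 CPM with it. Most DEX libraries lay below the untreated ones, and the ranges overlapped in both tissues through few high DEX libraries. The log2 difference was -1.07 ± 0.24 (SE, adjusted p = 0.00052), or 2.1-fold lower, in the airway and -1.13 ± 0.24 (adjusted p = 0.00017), or 2.19-fold lower, in the parenchyma. Without the 8 libraries it was -1.26 (adjusted p = 3.3e-06) and -1.31 (adjusted p = 7e-07).

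Per1, a repressor in the circadian clock that is also induced through the receptor, ranged over 15.9, 31.9 and 97.995 CPM in PBS.AIR airways and 8.62, 15.5 and 57.5 CPM with DEX. In the parenchyma the levels were 15.3, 39.01 and 120 CPM without DEX and 6.41, 14.4 and 62.1 CPM with DEX. The medians with DEX were below the lowest untreated library in both tissues, and the ranges overlapped. The differences were -0.98 ± 0.32 in airways (adjusted p = 0.024) and -1.31 ± 0.32 in parenchyma (adjusted p = 0.0011), a 2.48-fold fall, and without the 8 libraries they were -1.2 (adjusted p = 0.0044) and -1.52 (adjusted p = 0.00011).

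Zbtb16, a zinc finger transcription factor (PLZF) induced by glucocorticoids in many cells, had 9.16, 24.1 and 81.8 CPM in PBS.AIR airways and 6.62, 9.78 and 33.3 CPM with DEX. In the parenchyma it had 12.04, 29.1 and 100.5 CPM without DEX and 5.3, 8.67 and 31.1 CPM with DEX. It showed the largest DEX difference of the 10 genes, and again the groups overlapped. The differences were -1.09 ± 0.38 in airways (adjusted p = 0.037) and -1.71 ± 0.4 in parenchyma (adjusted p = 0.00061), or 3.27-fold lower. Without the 8 libraries they were -1.31 (adjusted p = 0.013) and -1.91 (adjusted p = 0.00017).

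Fkbp5 had 15.2, 22.2 and 67.1 CPM in PBS.AIR airways and 19.6, 25.1 and 56.6 CPM with DEX, and in the parenchyma 12.1, 18.3 and 71.6 CPM against 19.5, 23.7 and 52.7 CPM. The ranges with and without DEX lay almost on top of each other, with the highest libraries in the untreated groups. Its log2 differences were -0.02 ± 0.22 in airways (adjusted p = 0.96) and 0.08 ± 0.23 in parenchyma (adjusted p = 0.85), and without the 8 libraries -0.16 (adjusted p = 0.65) and -0.04 (adjusted p = 0.92). Averaged over the 4 exposures, the difference was 0.01 in the airway (95% interval from -0.2 to 0.22) and 0.07 in the parenchyma (from -0.14 to 0.28).

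Nr3c1 itself had 146.5, 206 and 228 CPM in PBS.AIR airways and 160, 174.99 and 207 CPM with DEX, a difference of -0.09 ± 0.07 that did not pass the test (adjusted p = 0.39). In the parenchyma the receptor had 246, 280 and 333 CPM without DEX and 206, 233 and 283 CPM with DEX. Parenchyma libraries with DEX were mostly below those without, by a log2 difference of -0.25 ± 0.07 (adjusted p = 0.0039), or 1.19-fold, and without the 8 libraries -0.25 (adjusted p = 0.004). Sgk1, a kinase that raises sodium channel activity in epithelia, rose there from 149.5, 157.6 and 198.4 CPM to 184.4, 198.1 and 232 CPM (log2 0.34 ± 0.11, adjusted p = 0.02), and without the 8 libraries by 0.3 (adjusted p = 0.039).

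**Figure D1:**
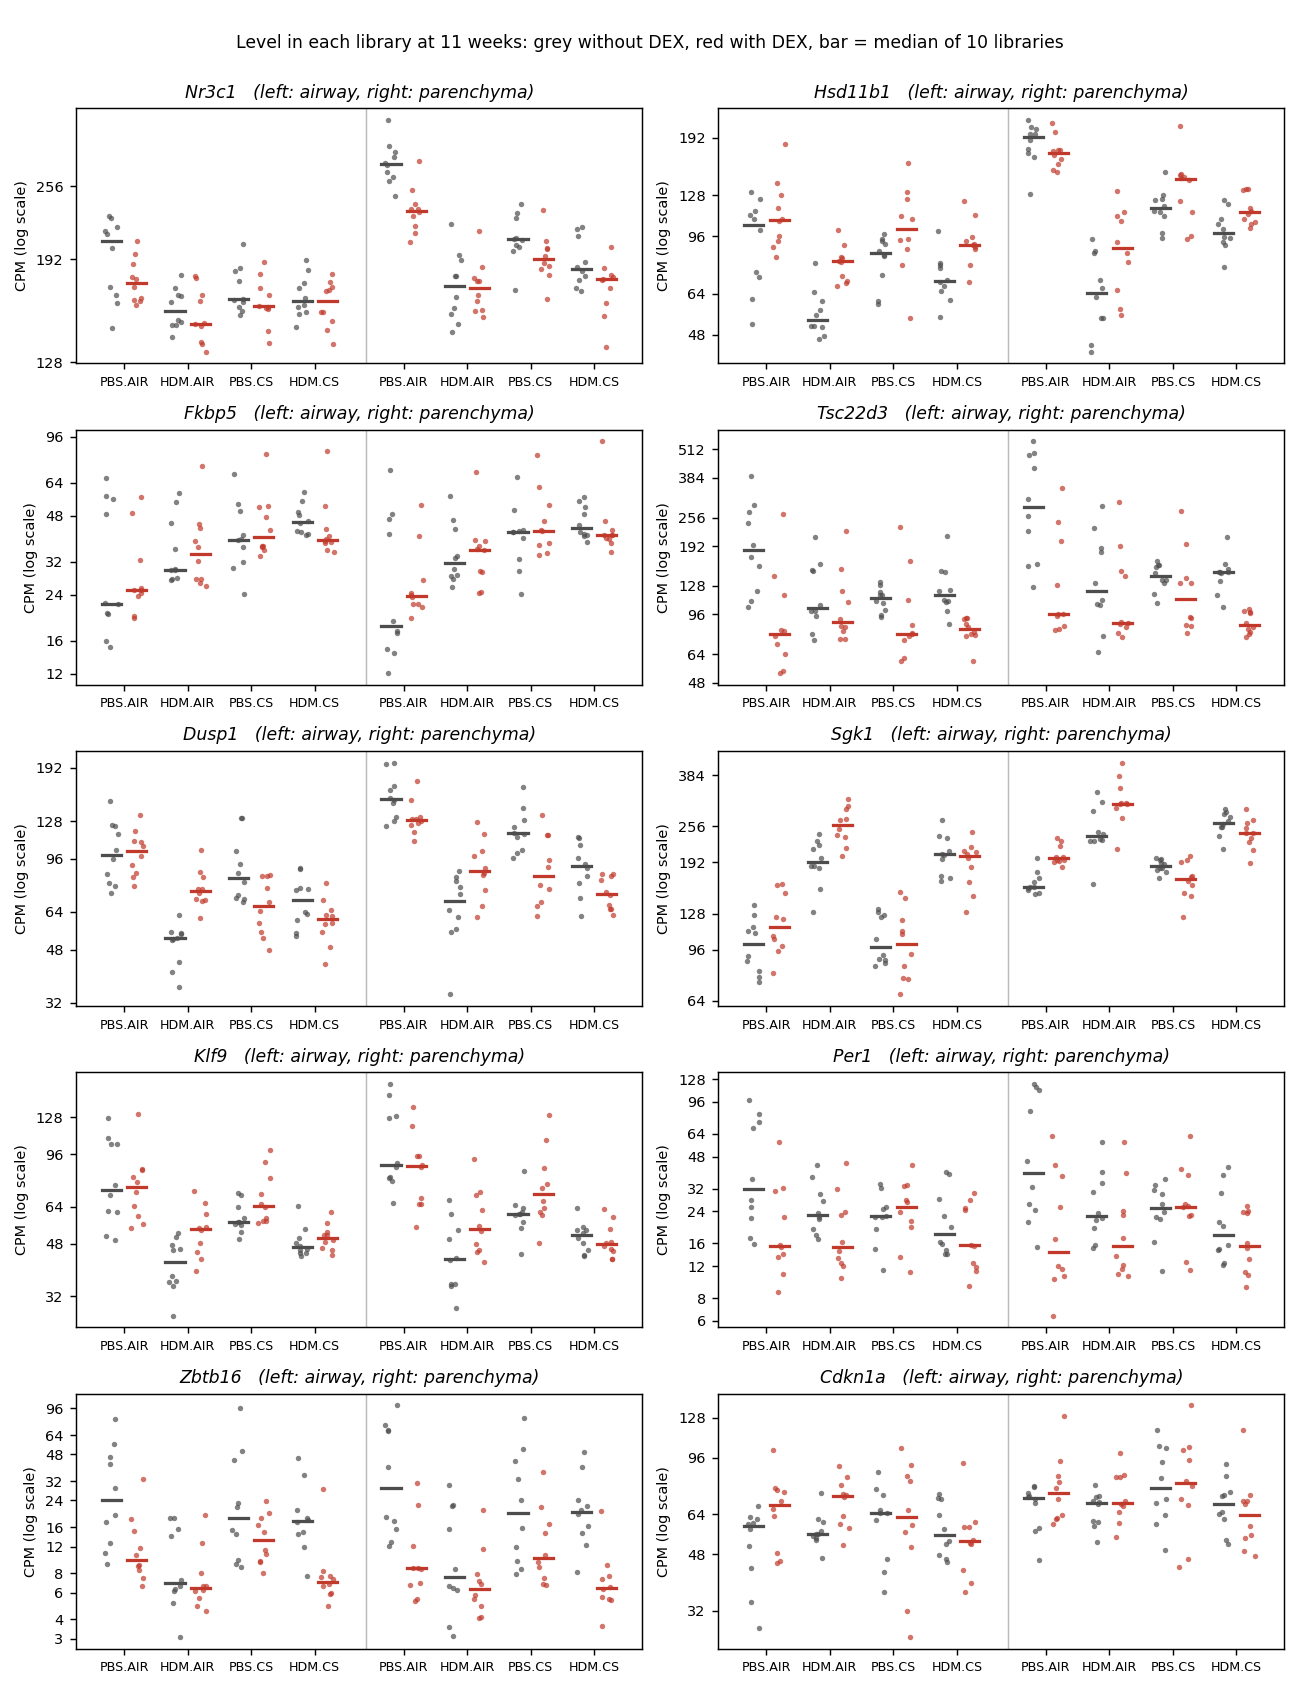
Levels of the 10 genes in each of the 160 libraries at 11 weeks, in CPM on a log axis, by exposure and tissue, with grey points for libraries without DEX, red points for libraries with DEX and a bar at the median of 10 libraries. In PBS.AIR the red points of Tsc22d3, Per1 and Zbtb16 lie mostly below the grey ones, those of Fkbp5 lie among them, and single red points stand far above the rest of their groups.

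In HDM-exposed mice breathing air, all members that passed the test rose with DEX. They were Dusp1, Klf9, Sgk1 and Hsd11b1 in both tissues, 4 of 10 in the airway (28.6% of all genes called) and the same 4 in the parenchyma (28.5% of all genes called). Of these, Sgk1 had also risen in PBS.AIR parenchyma. A call in 1 exposure and not in another does not by itself show that they differ. For the DEX by HDM interaction, given below, limma called no member. Without the 8 libraries Klf9 was no longer called in either tissue (0.33, adjusted p = 0.055, and 0.32, adjusted p = 0.074), while Dusp1 had 0.62 and 0.39, Sgk1 0.44 and 0.35 and Hsd11b1 0.5 and 0.42, all 3 called in both tissues. Bulk RNA cannot tell a change in the number of cells that express a gene from a change in RNA per cell.

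Dusp1 had 36.1, 52.4 and 62.6 CPM in HDM.AIR airways and 61.1, 74.9 and 102.6 CPM with DEX. All but 1 of the 10 DEX airway libraries lay above all untreated ones. The log2 difference was 0.62 ± 0.13 (adjusted p = 4.8e-05), a 1.53-fold rise, and in the parenchyma, where Dusp1 went from 34.1, 69.3 and 87.6 CPM to 61.5, 87.7 and 127.2 CPM, it was 0.44 ± 0.13 (adjusted p = 0.0046). Hsd11b1 had 46.6, 53.2 and 79.8 CPM in HDM.AIR airways and 67.9, 80.5 and 100 CPM with DEX. All 10 DEX libraries were above the untreated median and 6 above every untreated library, with a log2 difference of 0.5 ± 0.13 (adjusted p = 0.0015). In the parenchyma Hsd11b1 went from 42.6, 64.5 and 93.9 CPM to 55.3, 88.7 and 131.9 CPM (0.45 ± 0.13, adjusted p = 0.0048).

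Of the 20 groups, HDM.AIR.DEX parenchyma had the highest mean Sgk1 level. Sgk1 had 130, 193.3 and 240 CPM in HDM.AIR airways and 201.4, 259 and 317 CPM with DEX (log2 0.42 ± 0.12, adjusted p = 0.0029), and 162.1, 236 and 335 CPM against 214, 306 and 424 CPM in the parenchyma (0.36 ± 0.12, adjusted p = 0.014). Klf9, a Krüppel-like factor and a direct target of the receptor, had 27.5, 41.5 and 52.04 CPM in HDM.AIR airways and 38.8, 53.9 and 72.2 CPM with DEX. It rose by 0.37 ± 0.15 in airways (adjusted p = 0.041) and by 0.39 ± 0.15 in parenchyma (adjusted p = 0.035). In the same exposure, Tsc22d3 differed by -0.17 ± 0.23 in the airway (adjusted p = 0.64), Per1 by -0.44 ± 0.34 (adjusted p = 0.35) and Fkbp5 by 0.02 ± 0.21.

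In smoke-exposed mice fewer members passed. With PBS.CS, 1 of 10 was called in the airway (11.3% of all genes) and 1 of 10 in the parenchyma (16.9% of all genes), in each case Dusp1, which fell. It went from 69.04, 83.01 and 130.8 CPM to 47.8, 66.7 and 84.8 CPM in the airway (-0.39 ± 0.13, adjusted p = 0.029) and from 96.7, 116.5 and 165.4 CPM to 61.8, 84.4 and 133.8 CPM in the parenchyma (-0.43 ± 0.13, adjusted p = 0.01). Thus DEX groups lay above the untreated ones for Dusp1 after HDM in air and below them after smoke. Without the 8 libraries the values were -0.45 (adjusted p = 0.011) and -0.5 (adjusted p = 0.0025).

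With HDM.CS, 0 of 10 members were called in the airway (limma, 9.3% of all genes called) and 2 of 10 in the parenchyma (7.86% of all genes). In the airway 3 members had an unadjusted p-value under 0.05, and edgeR called 1 and DESeq2 2. In the parenchyma Tsc22d3 had 103.7, 147.4 and 210 CPM without DEX and 76.4, 86.1 and 100.9 CPM with it. Here alone among the 8 DEX comparisons, the groups did not overlap for a member, as they did not for 1.26% of all genes. The log2 difference was -0.72 ± 0.23 (adjusted p = 0.037), or 1.64-fold lower. Zbtb16 fell in the parenchyma from 8.18, 20.2 and 49.8 CPM to 3.64, 6.44 and 20.6 CPM (-1.54 ± 0.45, adjusted p = 0.018), a 2.91-fold fall, with 8 of 10 DEX libraries below every untreated one. Without the 8 libraries both were called (-0.7, adjusted p = 0.021, and -1.71, adjusted p = 0.0094). In the airway the differences were -1.21 ± 0.43 for Zbtb16 (adjusted p = 0.056), 0.36 ± 0.13 for Hsd11b1 (adjusted p = 0.063) and -0.59 ± 0.23 for Tsc22d3 (adjusted p = 0.1), and without the 8 libraries the first 2 of these passed (-1.43, adjusted p = 0.023, and 0.37, adjusted p = 0.049).

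Averaged over the 4 exposures, DEX was followed by lower Tsc22d3, Per1 and Zbtb16 and higher Hsd11b1 in both tissues, 5 of 10 members being called in the airway (41.1% of all genes) and 5 of 10 in the parenchyma (39.1% of all genes). Tsc22d3 differed by -0.52 ± 0.12 in airways (adjusted p = 0.00011) and -0.57 ± 0.12 in parenchyma (adjusted p = 3e-05), Per1 by -0.4 ± 0.16 (adjusted p = 0.042) and -0.5 ± 0.17 (adjusted p = 0.012), and Zbtb16 by -0.81 ± 0.21 (adjusted p = 0.00099) and -1.14 ± 0.22 (adjusted p = 7e-06). Hsd11b1 differed by 0.38 ± 0.07 in airways (adjusted p = 6.4e-07) and 0.2 ± 0.07 in parenchyma (adjusted p = 0.014). Nr3c1 was lower in the parenchyma (-0.13 ± 0.03, adjusted p = 0.0012), and Sgk1 was higher in the airway (0.14 ± 0.06, adjusted p = 0.044). The call of Sgk1 in the airway was the same in only 6 of 14 alternative settings. Among others, it was lost without the 8 libraries (0.11, adjusted p = 0.11) and without X32, the library with the fewest counts (0.13). Without the 8 libraries the values were -0.63 and -0.67 for Tsc22d3, -0.51 and -0.63 for Per1, -0.98 and -1.32 for Zbtb16 and 0.33 and 0.16 for Hsd11b1, and Dusp1 was called lower in the parenchyma (-0.16, adjusted p = 0.041). The share of members called was close to that of all genes.

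Whether the DEX difference depended on the exposure or the tissue was tested as interaction terms. The difference of Dusp1 with DEX was lower in smoke than in air, with an interaction of -0.62 ± 0.13 on the log2 scale in the airway (limma adjusted p = 0.0053), the 1 member of 10 called in a comparison that called 0.395% of all genes. In the parenchyma 2 of 10 members were called (4.58% of all genes), Dusp1 with -0.47 ± 0.13 (adjusted p = 0.016) and Sgk1 with -0.49 ± 0.12 (adjusted p = 0.0036). Both held without the 8 libraries (-0.44, adjusted p = 0.033, and -0.47, adjusted p = 0.0071), as did Dusp1 in the airway (-0.61, adjusted p = 0.006). Between HDM and PBS, averaged over air and smoke, limma called 0 of 10 members in the airway (4.47% of all genes) and 0 of 10 in the parenchyma (2.43% of all genes), with 1 and 2 at an unadjusted p-value under 0.05. With DESeq2 these counts were 1 and 0, and with edgeR 0 and 0. Dusp1 came nearest in both, with 0.38 ± 0.13 (adjusted p = 0.062) and 0.4 ± 0.13 (adjusted p = 0.064), and was called without the 8 libraries (0.46 in each, adjusted p = 0.015 and 0.02). Between airway and parenchyma, 0 of 10 were called by limma (0.268% of all genes), edgeR or DESeq2, 0 also at an unadjusted p-value, and the difference for Zbtb16 was 0.33 ± 0.31 (adjusted p = 0.8). With libraries of adjacent codes as pairs, Zbtb16 was called, at 0.33 ± 0.07 (adjusted p = 0.0025).

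**Figure D2:**
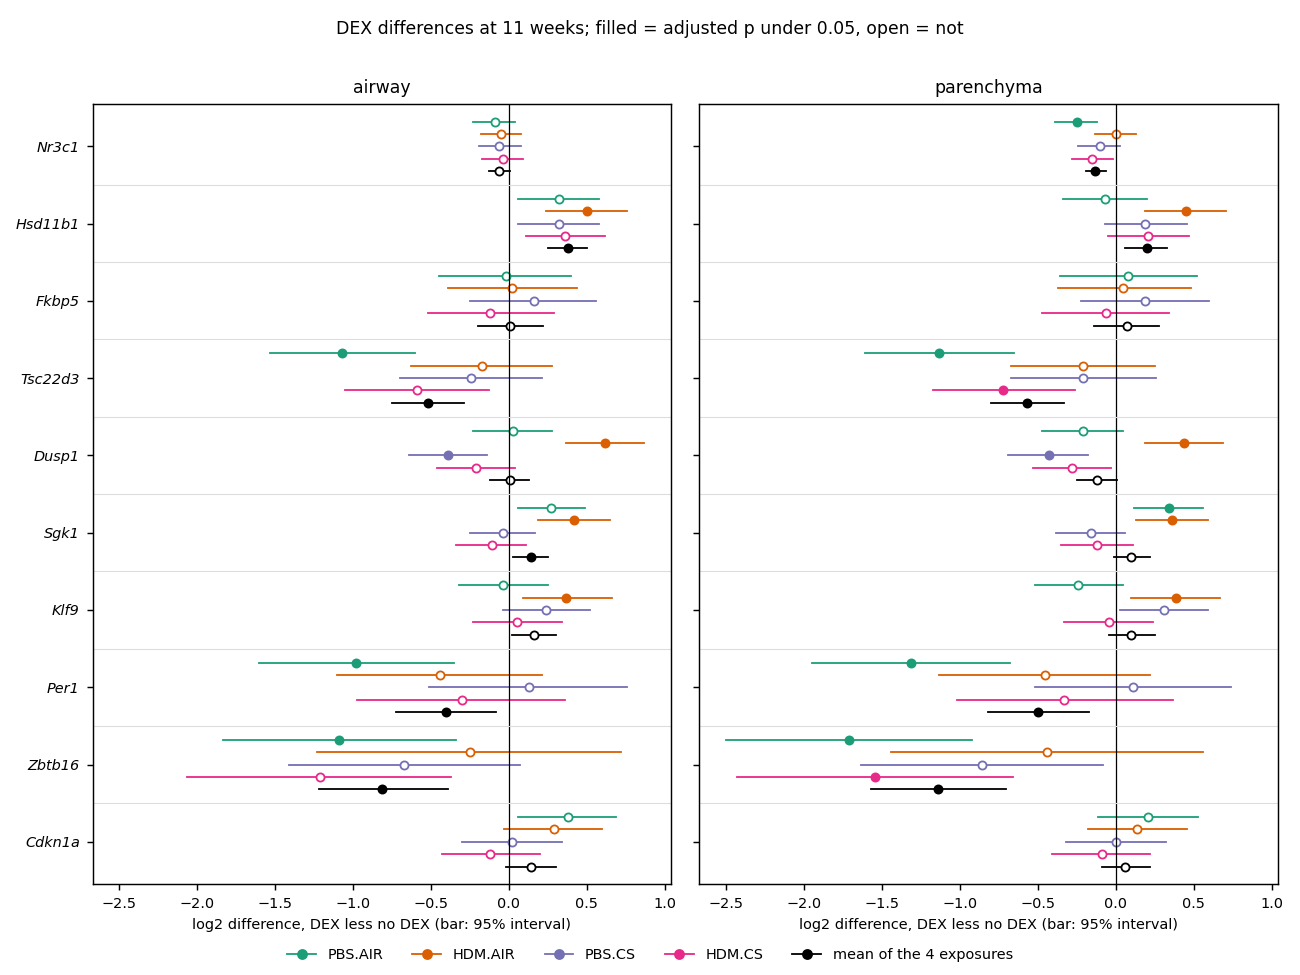
Log2 difference of DEX against no DEX for the 10 genes in each exposure and averaged over the 4 exposures, by tissue, with 95% intervals, filled points marking an adjusted p-value under 0.05. Points of Tsc22d3, Per1 and Zbtb16 lie below 0 in PBS.AIR, those of Dusp1 above 0 in HDM.AIR and below 0 in PBS.CS, and those of Fkbp5 near 0 throughout.

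The members differed in how far libraries of 1 group spread. Around their group means at 11 weeks, the SD of log2 levels over 160 libraries was 0.82 for Zbtb16, 0.69 for Per1, 0.51 for Tsc22d3 and 0.46 for Fkbp5, wider than for 98.7%, 97.7%, 94.4% and 92.3% of tested genes. Nr3c1 was the steadiest member, with an SD of 0.14 against a median of 0.22 over all genes. Cdkn1a, an inhibitor of cyclin-dependent kinases, had 0.35, Klf9 0.31, Hsd11b1 0.28, Dusp1 0.27 and Sgk1 0.24. Within a group, the highest library held up to 14.2 times the Zbtb16 level of the lowest.

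Much of this spread was shared by libraries with neighbouring codes. At 11 weeks, 80 pairs of 1 airway and 1 parenchyma library of the same exposure had adjacent codes, such as X167 and X168. Over these pairs, the deviations from the group means correlated with r = 0.96 for Per1, 0.95 for Fkbp5, 0.95 for Zbtb16, 0.93 for Tsc22d3, 0.89 for Klf9 and 0.85 for Cdkn1a, but 0.26 for Sgk1 and 0.11 for Hsd11b1. The labels do not say that adjacent codes come from 1 mouse, and both libraries could also share handling. At 3 weeks, 21 such pairs gave 0.88 for Fkbp5, 0.88 for Tsc22d3, 0.79 for Zbtb16 and 0.62 for Per1.

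**Figure D3:**
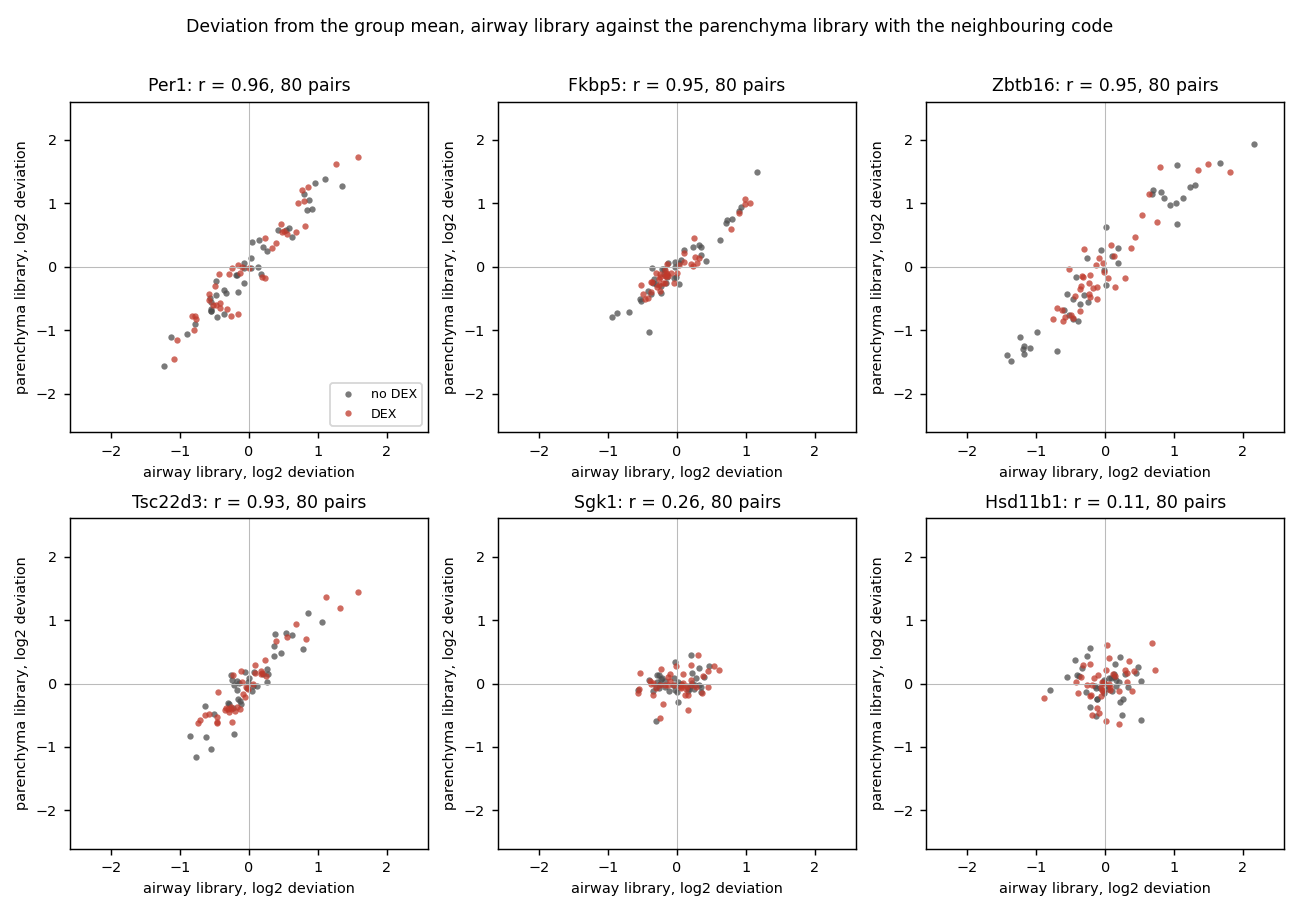
Deviation of the log2 level from the group mean in the airway library (horizontal) and the parenchyma library (vertical) of the 80 pairs with adjacent codes at 11 weeks, for 6 members. Points of Per1, Fkbp5, Zbtb16 and Tsc22d3 follow the diagonal (r from 0.93 to 0.96), and those of Sgk1 (0.26) and Hsd11b1 (0.11) scatter.

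Within groups, members also deviated with each other. Over 80 airway libraries and over 80 parenchyma libraries, the deviations of Tsc22d3 correlated with those of Klf9 (r = 0.83 and 0.85), Per1 (0.78 and 0.80) and Fkbp5 (0.73 and 0.77), and those of Fkbp5 with Zbtb16 (0.76 and 0.73). Fkbp5 did so most closely with Hif3a, a hypoxia factor induced by glucocorticoids, named after its values were seen (0.85 and 0.83). Nr3c1 deviated less with these genes (-0.21 and -0.07 with Fkbp5, 0.15 and 0.26 with Tsc22d3, 0.03 and 0.13 with Per1) than with Hsd11b1 (0.64 and 0.45), Dusp1 (0.41 and 0.37) and Klf9 (0.34 and 0.46), and with Sgk1 it had 0.61 and 0.10. Of 17 clock genes, 5 varied more than any member. Dbp, a clock output gene named after its values were seen, had an SD of 1.61, and Arntl (Bmal1), the positive arm of the clock, 0.88. Per1 deviated with Per2 (0.81 and 0.83) and against Arntl (-0.53 and -0.44), Cdkn1a against Dbp (-0.83 and -0.71), and Fkbp5 with neither direction of Dbp (-0.04 and 0.08).

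Some clock genes, such as Arntl and Dbp, differed between ranges of library codes. Codes of 1 to 60, of 61 to 120 and above 120, ranges set after the values were seen, held 3, 3 and 4 libraries of each group at 11 weeks. In PBS.AIR airways, Arntl lay between 16.4 and 18.5, 34.7 and 42.4, and 2.73 and 4.08 CPM in these ranges, without overlap. With DEX it lay between 42.96 and 45.6, 17.6 and 25.5, and 38.2 and 50.2 CPM, so that treated and untreated libraries of 1 range held different Arntl levels. Over all ranges, Arntl was higher with DEX in PBS.AIR (airway 1.61, adjusted p = 0.0032, parenchyma 1.75, adjusted p = 0.0019). Sampling hour is not given, and its part in the DEX differences was not tested.

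Fkbp5 in PBS.AIR airways lay between 20.3 and 22.1 CPM in codes 1 to 60, 15.2 and 22.2 in codes 61 to 120, and 48.6 and 67.1 in codes above 120. With DEX it lay between 19.6 and 24.4, 19.9 and 25.1, and 25.5 and 56.6 CPM. The high untreated libraries of Fkbp5 all belonged to the last range, where the DEX difference was -0.51 ± 0.22, against 0.16 ± 0.27 and 0.4 ± 0.28 in the others. In the parenchyma the corresponding differences were 0.34 ± 0.29, 0.66 ± 0.3 and -0.53 ± 0.22, so that the near-0 value over all libraries averages opposite signs.

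Tsc22d3, Per1 and Zbtb16 were also highest in untreated libraries of the last range, with 242 to 391, 68.6 to 97.995 and 41.4 to 81.8 CPM in PBS.AIR airways. Their DEX differences in PBS.AIR kept 1 sign in every range. They were -1.13, -0.98 and -1.08 for Tsc22d3, -1.0, -0.66 and -1.21 for Per1 and -1.19, -0.44 and -1.53 for Zbtb16 in the airway, and -1.45, -0.81 and -1.13, -1.34, -1.14 and -1.4, and -1.56, -1.14 and -2.22 in the parenchyma. Cdkn1a changed sign between ranges in the airway, with 0.33, -0.4 and 1.0.

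The DEX differences of HDM.AIR were the same in sign across the ranges for all 4 called members in the airway, where Dusp1 had 0.64, 0.61 and 0.6 and Hsd11b1 0.46, 0.21 and 0.74. In the parenchyma, codes 1 to 60 showed none of the rise of Dusp1 or Hsd11b1, at -0.05 ± 0.22 for each, against 0.77 and 0.55 for Dusp1 and 0.84 and 0.52 for Hsd11b1 in the later ranges. The fall of Dusp1 in PBS.CS airways was likewise not seen in codes 1 to 60 (0.04 ± 0.21, against -0.79 and -0.42), and in the parenchyma it had -0.35, -0.91 and -0.15.

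Averaged over the 4 exposures, the called differences kept their sign in each range but not always their call. In the airway, Tsc22d3 had -0.61, -0.7 and -0.31 in the 3 ranges and was called in each, Zbtb16 had -0.82, -0.77 and -0.83 and was called in the last, and Per1 had -0.67, -0.44 and -0.17 and was called in the first. Hsd11b1 had 0.46, 0.11 and 0.51 there and was not called in codes 61 to 120, and Sgk1 had 0.22, 0.01 and 0.16 and was called in none. In the parenchyma, Tsc22d3 (-0.77, -0.57 and -0.41) and Zbtb16 (-1.15, -1.1 and -1.16) were called in each range and Per1 (-0.81, -0.67 and -0.16) in all but the last (adjusted p = 0.49). Hsd11b1 (0.05, 0.28 and 0.23) and Nr3c1 (-0.16, -0.16 and -0.09) were called there in none.

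**Figure D4:**
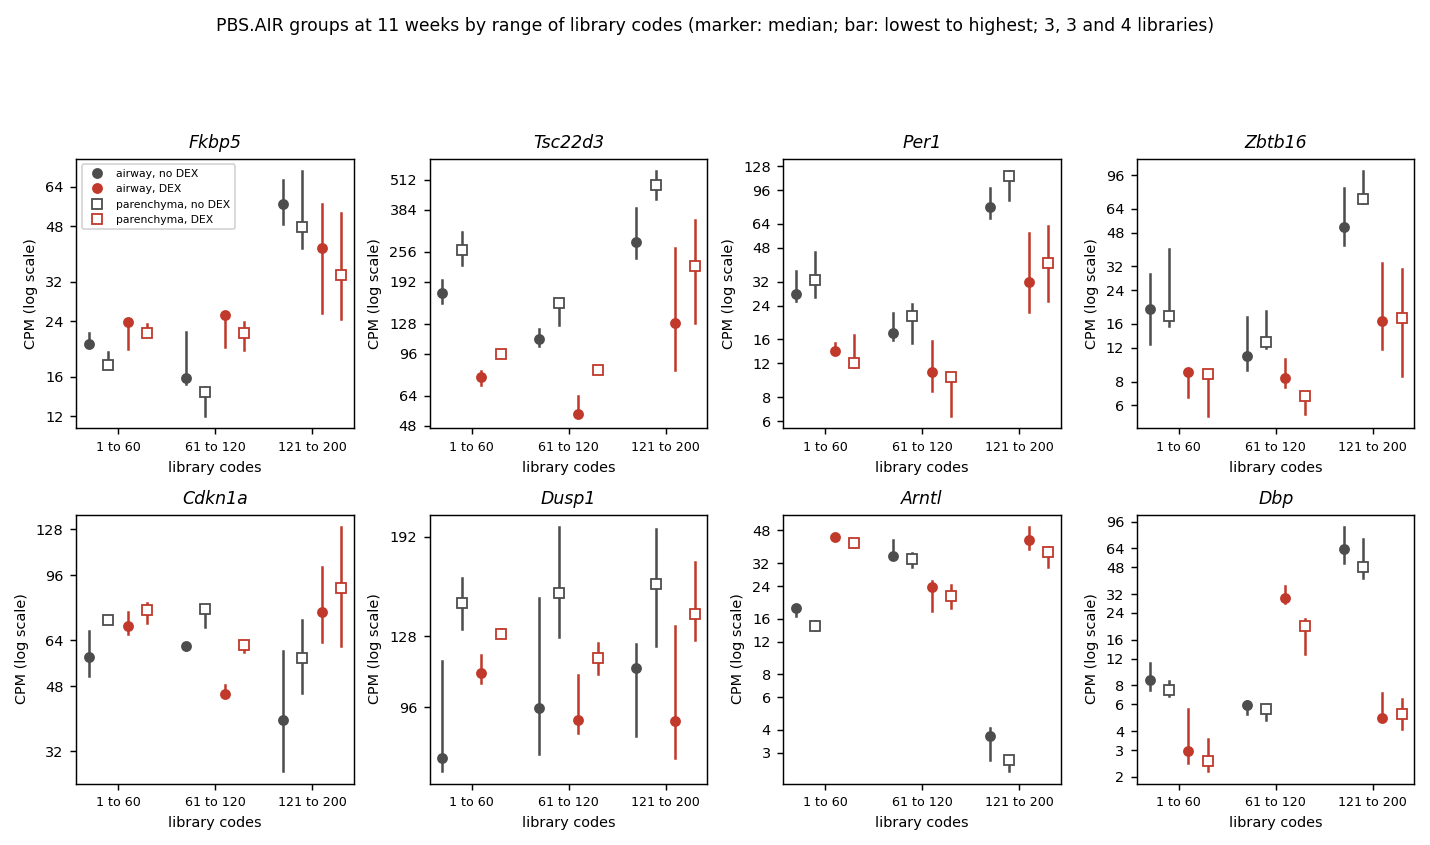
Levels in CPM on a log axis of 6 members and the clock genes Arntl and Dbp in PBS.AIR libraries without DEX (grey) and with DEX (red), by range of library codes, with filled markers for the airway and open ones for the parenchyma at the median of 3 or 4 libraries and bars from the lowest to the highest. Untreated libraries of codes above 120 hold the highest Fkbp5, Tsc22d3, Per1, Zbtb16 and Dbp and the lowest Arntl.

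In HDM.AIR against PBS.AIR airways, 7 of 10 members were called (61.1% of all genes). In the parenchyma 8 of 10 were called (59.5% of all genes). Sgk1 alone of these rose. In the 2 tissues 6 and 7 members fell, as did 29.8% and 26.9% of all genes. Whether the members as a set differed from all genes was not tested. The comparisons with HDM.AIR, PBS.CS, HDM.CS and PBS.AIR.DEX share the PBS.AIR libraries, whose highest Fkbp5, Tsc22d3, Per1 and Zbtb16 levels lay in codes above 120. In codes 61 to 120, the parenchyma medians of Per1 were 21.1 CPM in PBS.AIR and 21.5 CPM in HDM.AIR.

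Dusp1 fell from 74.01, 99.01 and 150 CPM in PBS.AIR airways to 36.1, 52.4 and 62.6 CPM in HDM.AIR airways, without overlap (-0.99 ± 0.13, adjusted p = 1.3e-11), and from 122.99, 151.6 and 200 CPM to 34.1, 69.3 and 87.6 CPM in the parenchyma, again without overlap (-1.2 ± 0.13, adjusted p = 3e-15). Groups did not overlap for 16.2% and 22.3% of all genes. Hsd11b1 went from 130, 193.01 and 218 CPM to 42.6, 64.5 and 93.9 CPM in the parenchyma (-1.49 ± 0.13, adjusted p = 8.1e-20), the largest exposure difference in fold among members with no overlap at 11 weeks, and from 51.9, 104.2 and 131.2 CPM to 46.6, 53.2 and 79.8 CPM in the airway (-0.69 ± 0.13, adjusted p = 2.1e-06). The rises of Dusp1 and Hsd11b1 with DEX in HDM.AIR left both below the untreated PBS.AIR median in the parenchyma, at 87.7 and 88.7 CPM.

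Nr3c1 fell in HDM.AIR parenchyma from 246, 280 and 333 CPM to 143.9, 172.7 and 221 CPM, without overlap (-0.67 ± 0.07, adjusted p = 2.4e-16), and in the airway by 0.26 ± 0.07 on the log2 scale (adjusted p = 0.00038). Klf9 had -0.91 ± 0.15 in airways (adjusted p = 2e-08) and -1.18 ± 0.15 in parenchyma (adjusted p = 1.9e-12), Tsc22d3 -0.68 ± 0.24 (adjusted p = 0.0095) and -1.04 ± 0.25 (adjusted p = 0.00011), and Zbtb16 -1.5 ± 0.42 (adjusted p = 0.0011) and -1.72 ± 0.4 (adjusted p = 0.0001). Sgk1 rose from 74.3, 100 and 137.1 CPM to 130, 193.3 and 240 CPM in the airway (0.97 ± 0.11, adjusted p = 6.5e-14) and by 0.62 ± 0.11 in the parenchyma (adjusted p = 9.5e-07). The members that fell with HDM included the receptor, both anti-inflammatory targets and the enzyme that regenerates its ligand. Calls were common among all genes in this comparison, so they do not by themselves set the pathway apart. Fkbp5 gave 0.28 ± 0.21 (adjusted p = 0.26) and 0.47 ± 0.22 (adjusted p = 0.056).

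Smoke gave few calls in the airway, 2 of 10 (13.7% of all genes), which were Tsc22d3 (-0.75 ± 0.24, adjusted p = 0.02) and Klf9 (-0.4 ± 0.14, adjusted p = 0.049, not called without X32, the library with the fewest counts), and 7 of 10 in the parenchyma (35.9% of all genes). There Fkbp5 rose from 12.1, 18.3 and 71.6 CPM to 24.2, 41.5 and 67.2 CPM (0.66 ± 0.22, adjusted p = 0.012), and its ranges overlapped through the high untreated libraries. Nr3c1 fell to 170, 208 and 239 CPM, below every PBS.AIR library (-0.42 ± 0.07, adjusted p = 2.1e-07). Tsc22d3 (-1.0 ± 0.25, adjusted p = 0.00051), Per1 (-0.93 ± 0.31), Klf9 (-0.74 ± 0.14), Hsd11b1 (-0.65 ± 0.14) and Dusp1 (-0.37 ± 0.13) fell too, all with overlap. In codes 61 to 120, PBS.CS medians lay above those of PBS.AIR for airway Tsc22d3 (120.4 against 110.2 CPM) and parenchyma Per1 (33.5 against 21.1 CPM). In codes above 120, parenchyma Fkbp5 had medians of 46.5 against 47.6 CPM. The medians of the other called differences kept their direction in every range of codes.

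With both exposures, 8 of 10 members were called in the airway (49% of all genes) and 8 of 10 in the parenchyma (47.4% of all genes). Fkbp5 and Sgk1 rose in both tissues, Fkbp5 by 0.66 ± 0.21 (adjusted p = 0.006) and 0.87 ± 0.22 (adjusted p = 0.00043) and Sgk1 by 1.04 ± 0.11 (adjusted p = 7.7e-15) and 0.7 ± 0.12 (adjusted p = 9.6e-08). Nr3c1, Tsc22d3, Per1, Dusp1, Klf9 and Hsd11b1 fell in both. In codes 61 to 120, however, HDM.CS medians of Per1 lay above those of PBS.AIR (airway 38.4 against 17.2, parenchyma 38.2 against 21.1 CPM). Airway Tsc22d3 did so too (147.2 against 110.2 CPM). In codes above 120, Fkbp5 medians lay below those of PBS.AIR (airway 45.2 against 56.4, parenchyma 44.7 against 47.6 CPM). In the parenchyma Nr3c1 had a log2 difference of -0.55 (adjusted p = 1.2e-11), Per1 had -1.18 (adjusted p = 0.0012) and Hsd11b1 -0.86 (adjusted p = 2.6e-08), and Nr3c1, Dusp1, Klf9, Sgk1 and Hsd11b1 did not overlap with PBS.AIR, as 16.1% of all genes did not.

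At 3 weeks, in mice without smoke or DEX, HDM against PBS called most members and most genes, 9 of 10 members in the airway (74.6% of all genes) and 8 of 10 in the parenchyma (77.7% of all genes), so that the share of members was close to that of all genes. Groups did not overlap for 2 members in the airway (21.6% of all genes) and for 6 in the parenchyma (39.3% of all genes).

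Fkbp5 rose from 9.39, 17.2 and 24.5 CPM in PBS parenchyma to 37.7, 47.5 and 106.7 CPM with HDM, a 2.97-fold rise without overlap (1.57 ± 0.2, adjusted p = 3.2e-09), and from 12.5, 22.3 and 32.6 CPM to 38.6, 46.7 and 111.8 CPM in the airway (1.25 ± 0.19, adjusted p = 1.2e-07). Cdkn1a rose from 26.6, 31.9 and 42.04 CPM to 70.4, 80.3 and 116.2 CPM in the parenchyma (1.22 ± 0.08, adjusted p = 1.2e-16) and from 27.4, 33.6 and 41.2 CPM to 55.2, 65.3 and 83.5 CPM in the airway (0.92 ± 0.08, adjusted p = 8.3e-13), without overlap in either. Sgk1 rose by 0.56 ± 0.13 (adjusted p = 0.00016) and 0.57 (adjusted p = 0.00014). Rising Fkbp5 and falling Tsc22d3 and Per1 stood side by side in the same libraries. The clock genes also differed between these groups, without overlap. With PBS the lowest Dbp level was 102.7 CPM in the airway and 108.3 CPM in the parenchyma. With HDM the highest were 27.9 and 33.8 CPM. Arntl was at most 10.01 and 6.77 CPM with PBS and at least 11.5 and 9.26 CPM with HDM. The part of the clock in the 3-week changes was not tested.

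Hsd11b1 fell from 115.1, 154.1 and 191.2 CPM to 45.5, 56.1 and 63.99 CPM in the parenchyma, a 3.02-fold fall (-1.59 ± 0.13, adjusted p = 5e-15), and by 1.11 ± 0.13 on the log2 scale in the airway (adjusted p = 3.2e-10). Dusp1 had -1.29 ± 0.2 in airways (adjusted p = 3.1e-07) and -1.33 in parenchyma (adjusted p = 8.7e-08), Tsc22d3 -1.02 ± 0.15 and -1.2, Per1 -0.85 ± 0.16 and -1.15, and Nr3c1 -0.43 ± 0.07 and -0.66 ± 0.06. Klf9 fell in the airway (-0.4 ± 0.15, adjusted p = 0.015) and had -0.19 in the parenchyma (adjusted p = 0.24). Zbtb16 did not pass in either tissue (0.25 ± 0.43 and 0.01 ± 0.45). Its levels at 3 weeks were low, with medians of 5.23 CPM in PBS airways and 6.04 CPM in PBS parenchyma.

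**Figure D5:**
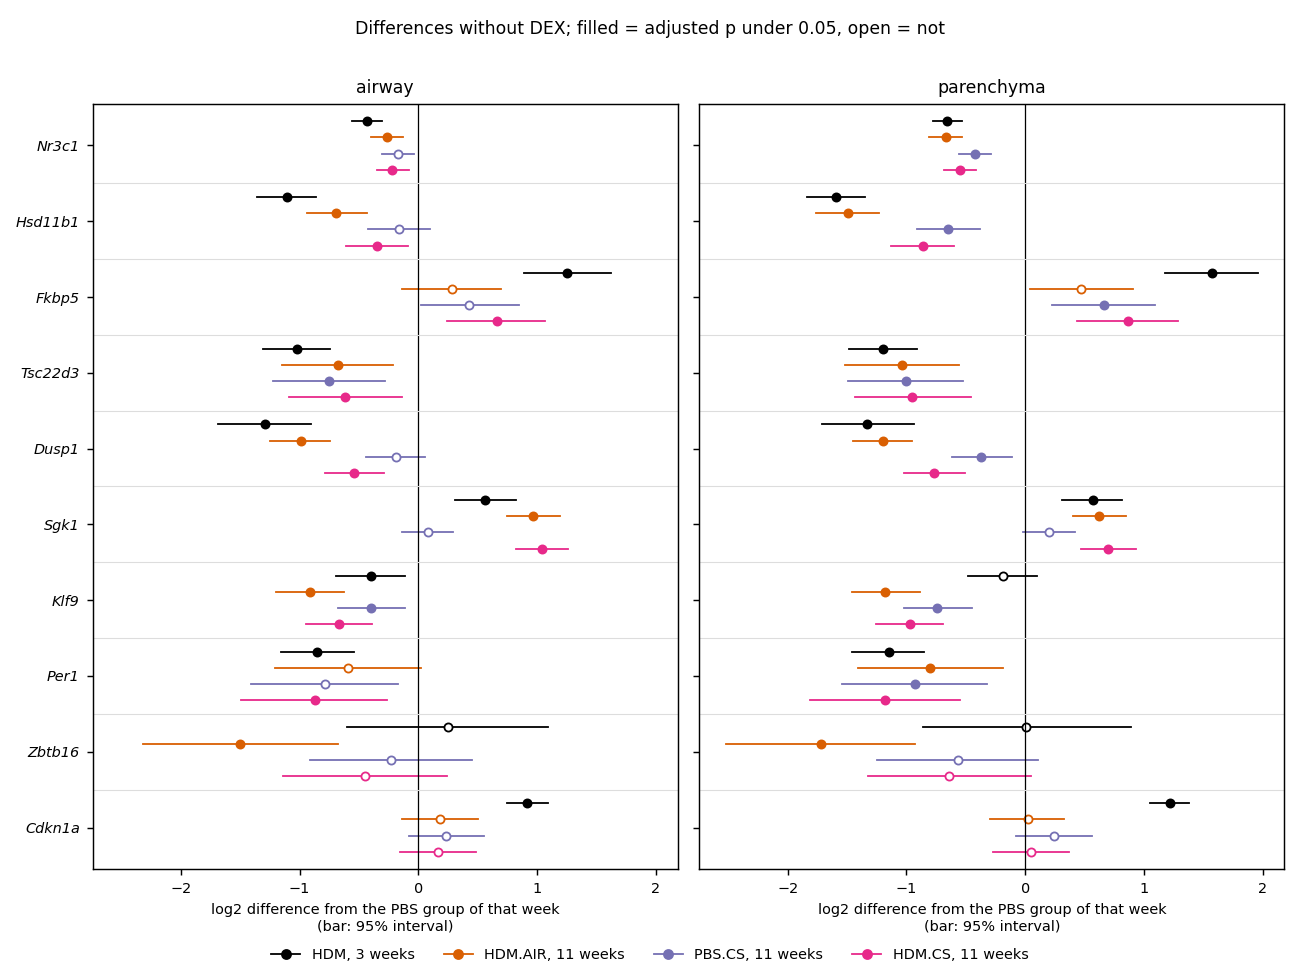
Log2 differences with 95% intervals of HDM against PBS at 3 weeks and of HDM.AIR, PBS.CS and HDM.CS against PBS.AIR at 11 weeks for the 10 genes, by tissue, filled points marking an adjusted p-value under 0.05. Hsd11b1, Dusp1, Nr3c1 and Tsc22d3 lie below 0 in nearly every comparison, Sgk1 above 0 in all of them, and Fkbp5 highest at 3 weeks. With smoke alone Sgk1 had 0.08 (airway) and 0.2 (parenchyma), which did not pass the test.

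Between tissues, untreated airway was lower than parenchyma in 7 of 10 members at 11 weeks (56.4% of all genes called in either direction). At 3 weeks it was lower in 5 of 10 (56.1% of all genes called in either direction). Of all genes, 30.1% and 31.7% were called lower in the airway. No member was called higher in the airway. With adjacent codes as pairs, 10 and 7 were called, among them Fkbp5, which was then higher in the airway (0.24, adjusted p = 6.8e-05, and 0.39, adjusted p = 5.9e-05). Nr3c1 (-0.53 ± 0.07, adjusted p = 2.9e-11) and Sgk1 (-0.71, adjusted p = 1.2e-08) did not overlap between tissues at 11 weeks, nor at 3 weeks (-0.44 and -0.73), and groups did not overlap for 16.7% and 9.22% of all genes. Hsd11b1 had a log2 difference of -1.0 ± 0.14 at 11 weeks (adjusted p = 9.4e-11). The tissues were told apart by their markers. The 4 club cell markers summed to between 43420 and 64668 CPM in PBS.AIR airways and to between 17466 and 30955 CPM in the parenchyma, and the 5 alveolar type II markers to between 6485 and 21381 CPM and between 18281 and 30081 CPM. Airway libraries also held cardiac muscle markers, 256 to 2717 CPM against 26.9 to 41.1 CPM in the parenchyma.

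The order of the 20 groups by mean log2 level ran over a log2 span from 1.07 for Nr3c1 to 2.22 for Zbtb16. Neighbours in the order mostly did not differ beyond their spread. Of 190 neighbouring pairs, 3 did by a 2-sided permutation test of 100000 resamples with adjustment over all pairs. Nr3c1 was highest in PBS.AIR parenchyma, above PBS.AIR.DEX parenchyma next in order, Hsd11b1 was lowest in HDM airways at 3 weeks, below HDM parenchyma at 3 weeks, and Cdkn1a stepped up between PBS parenchyma at 3 weeks and PBS.AIR airways at 11 weeks. Dusp1, Klf9 and Hsd11b1 shared their lowest group, HDM airways at 3 weeks, and their highest, PBS.AIR parenchyma, with Nr3c1. Per length of exon, the medians over all libraries ranged from 1.81 CPM per kilobase for Zbtb16 to 38.2 for Sgk1.

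By likeness over the 20 group means, centred within tissue, the closest of the other protein-coding genes were Vegfa (r = 0.991), Sgip1 (0.989) and Prkd1 (0.989) for Hsd11b1, Rock2 (0.977), Phldb1 (0.969) and Wdr47 (0.962) for Klf9, and Nck2 (0.965), Tspan13 (0.961) and Pik3r1 (0.959) for Nr3c1. Those of Per1 were Hlf (0.940), Per2 (0.925) and Pik3ip1 (0.910), of which the first 2 are clock genes. Chrdl1, Id1 and Mob2 were closest to Dusp1 (0.960, 0.956 and 0.953), Pla2g15, Osbpl8 and Ly75 to Sgk1 (0.952, 0.950 and 0.947), Leo1, Ankrd13c and Ppme1 to Cdkn1a (0.959, 0.938 and 0.935), and Vwa5a, Olfm4 and Actn1 to Fkbp5 (0.959, 0.938 and 0.937). Tsc22d3 was nearest to Yaf2 (0.927), Cbx1 (0.921) and Sesn1 (0.917), and Zbtb16 had the least close, Epb41 (0.872), Cep68 (0.869) and Mxd4 (0.866). Between members, Tsc22d3 and Per1 had r = 0.92, Nr3c1 and Dusp1 0.86, and Fkbp5 and Dusp1 -0.77. The group means share libraries of 1 series, so these values describe likeness across these 20 groups.

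Other genes of the pathway moved in both directions with DEX. Of all genes tested, 10.6% rose and 11.97% fell in PBS.AIR parenchyma, 12.5% rose and 16.05% fell in HDM.AIR airways, and averaged over exposures the shares were 20.7% and 20.4% for airways and 18.02% and 21.05% for parenchyma. Of 36 further genes known to be induced by glucocorticoids, 2 rose and 10 fell with DEX in PBS.AIR parenchyma (median log2 difference -0.19), 8 rose and 1 fell in HDM.AIR airways (median 0.1), and averaged over exposures 10 rose and 8 fell in the airway and 7 rose and 11 fell in the parenchyma. The medians of all genes were near 0. Fam107a, an actin-binding protein, fell in both tissues (-0.41, adjusted p = 0.0087, and -0.56, adjusted p = 0.0011), as did Per2 (-0.5, adjusted p = 0.012, and -0.55, adjusted p = 0.0076). Cyp2b10, a cytochrome P450 enzyme, rose in both (0.49, adjusted p = 6.1e-08, and 0.48, adjusted p = 1.8e-07), and Crispld2, a secreted protein, rose in the airway (0.41, adjusted p = 5.4e-05).

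Of 21 genes of receptor handling and chaperones, 5 rose in the airway and 4 in the parenchyma with DEX averaged over exposures, and none fell (limma, medians 0.07 and 0.08). The numbers that rose were close to the shares of all genes that rose. H6pd, which supplies NADPH to the enzyme encoded by Hsd11b1, rose in both tissues (0.31, adjusted p = 4.8e-11, and 0.24, adjusted p = 2.6e-07), alongside Hsd11b1. Abcb1b, a drug efflux pump of which DEX is a substrate, rose by 0.13 (adjusted p = 0.025) and 0.31 (adjusted p = 1.7e-07). In HDM.AIR it had -0.14 and -0.1, and its DEX by HDM interaction was called in the parenchyma (-0.41, adjusted p = 0.018). Abcb1a, the paralogous pump, rose in the airway (0.2, adjusted p = 0.0067) and had -0.02 in the parenchyma, where it fell in PBS.AIR (-0.35, adjusted p = 0.027).

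Of 20 inflammatory genes known to be repressed by glucocorticoids, 15 rose and 1 fell in HDM.AIR airways against PBS.AIR (median 1.47) and 16 rose and none fell in the parenchyma (median 2.23). With DEX in HDM.AIR, 9 fell and 1 rose in the airway (median -0.52) and 12 fell and 1 rose in the parenchyma (median -0.87). Cxcl10, a chemokine for T cells, differed with DEX in HDM.AIR by -1.67 in airways (adjusted p = 0.0005) and -2.51 in parenchyma (adjusted p = 1.8e-07). In HDM.AIR, Ccl5 had -0.77 (adjusted p = 0.015) and -1.16 (adjusted p = 0.00027). The type 2 cytokine Il13 had -0.94 (adjusted p = 0.096) and -2.14 (adjusted p = 0.00019), and Ccl11 -0.39 (adjusted p = 0.42) and -1.08 (adjusted p = 0.033). Averaged over exposures, Ccl5 had -1.7 (adjusted p = 4.7e-15) and -1.68 (adjusted p = 1.9e-12). Il13 had -0.75 (adjusted p = 0.023) and -1.28 (adjusted p = 0.00018), and Ccl11 -0.38 (adjusted p = 0.051) and -0.93 (adjusted p = 0.0057). Ccl5 fell less in HDM than in PBS groups (DEX by HDM interaction 1.87, adjusted p = 0.00022, and 1.43, adjusted p = 0.032). In PBS.AIR, with DEX, 2 of these 20 rose and 3 fell in the airway and 3 rose and 2 fell in the parenchyma. Of all genes, 31.3% rose and 29.8% fell in HDM.AIR airways against PBS.AIR, and 32.6% and 26.9% in the parenchyma. With DEX in HDM.AIR these shares were 12.5% and 16.05% in the airway and 12.2% and 16.2% in the parenchyma. With DEX in PBS.AIR they were 8.03% and 6.85% in the airway and 10.6% and 11.97% in the parenchyma.

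Of 17 clock genes, 3 rose and 5 fell with DEX in PBS.AIR airways (median -0.59) and 4 rose and 6 fell in the parenchyma (median -0.52), while in HDM.AIR 1 rose in the airway and 3 rose and 2 fell in the parenchyma. Of all genes, 8.03% rose and 6.85% fell in PBS.AIR airways, and 10.6% and 11.97% in PBS.AIR parenchyma. In HDM.AIR the shares were 12.5% and 16.05% in the airway and 12.2% and 16.2% in the parenchyma. Hlf, a clock output factor, had -1.14 in PBS.AIR airways and -1.84 in the parenchyma, beside Npas2, a partner of Arntl, with 1.31 and 2.06. Per1 and the clock genes thus moved in the same exposure, and the part of the clock in the change of Per1, Tsc22d3 and Zbtb16 was not tested. Of 20 immediate early genes, to which Dusp1 is related by its regulation, 3 rose and 4 fell in the airway and 3 rose and 5 fell in the parenchyma averaged over exposures, with Fosl1 higher (0.61 and 1.09) and Egr3 lower (-0.88 and -0.75) in both. Of 15 p53 targets, a list related to Cdkn1a, 1 rose and 4 fell in the airway and 1 rose and 5 fell in the parenchyma, with Gtse1 (-0.71 and -0.69) and Trp53inp1 (-0.51 and -0.47) lower. Averaged over exposures, 20.7% of all genes rose and 20.4% fell in the airway, and 18.02% and 21.05% in the parenchyma. The counts of immediate early genes were near these shares.

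Cell type markers moved with DEX beside these genes. Averaged over exposures, all 6 T cell and all 6 B cell markers fell in both tissues (median log2 differences -1.11 and -1.13, and -1.17 and -1.25), all 4 tested eosinophil markers fell (-1.01 and -1.3), and all 5 alveolar type I (0.33 and 0.28) and all 5 alveolar type II markers (0.51 and 0.59) rose. The tested thymocyte markers, Dntt (-3.07 and -2.38), Themis (-1.14 and -1.15) and Cd1d1 (-0.32 and -0.53), fell as well. The other listed thymocyte markers, Rag1, Rag2 and Ptcra, were not tested. In PBS.AIR parenchyma the T cell markers summed to between 34.5 and 47.9 CPM without DEX and between 10.5 and 29.5 CPM with DEX, the alveolar type II markers to between 18281 and 30081 CPM and between 29484 and 36530 CPM, and the macrophage markers to between 766 and 1312 CPM and between 1421 and 2263 CPM. In HDM.AIR parenchyma, where Dusp1, Klf9, Sgk1 and Hsd11b1 rose with DEX, T cell markers summed to between 90.6 and 212 CPM without DEX and between 40.8 and 123.2 CPM with DEX. In HDM.AIR against PBS.AIR parenchyma, all 6 T cell and 6 B cell markers and 6 of 8 macrophage markers rose, all 5 endothelial markers fell, and fibroblast markers, of which 2 rose and 3 fell, summed to between 1131 and 1738 CPM against 2739 and 3493 CPM. Epx, a defining eosinophil marker, was at 0 in every library of both PBS.CS tissues. The part of these cell types in the members' changes was not tested.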

How the data were processed

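RNA was sequenced from dissected airway and parenchyma of mouse lung in 203 libraries, and each library was assigned to its group by its label. Per the labels and the submitters' processing notes, the authors demultiplexed the 100 bp reads with bcl2fastq 2.20.0.422 and processed them with STAR 2.5.1b, RSEM 1.2.31 and kallisto 0.44.0 on mm10. The deposited table holds estimated counts per gene. Which quantifier made it, and whether counting used strand, is not given in the sources used here. Fractional counts made up 20.3% of the values above 0, and every value was rounded before testing. Of 43346 identifiers, 42462 matched a gene symbol once the version was dropped (23106, or 53.3%, with it), and the table had 0 columns of no sample.

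Counts were scaled with TMM factors (edgeR 4.0.16, R 4.3.3) and tested with limma-voom (limma 3.58.1), in 1 fit over the 16 groups at 11 weeks and another over the 4 groups at 3 weeks. Tested genes reached, in at least 9 libraries, the CPM that equals 10 counts in the median library. Benjamini-Hochberg adjustment ran over all tested genes, with a threshold of 0.05 for a call. Deviations and group means used log2(CPM + 0.5), and intervals are 95% intervals. Neighbouring groups were compared by 2-sided permutation tests of 100000 resamples. Libraries of 1 group differed from each other by more than sampling noise, so none was a copy of another, and each was counted as 1 sample. That does not show that they are independent. For genes such as Arntl and Fkbp5, libraries of 1 range of codes lay closer together than those of different ranges. For such genes the SE and adjusted p-values may be too small. The precision of a value is at best that of 10 to 12 libraries and of their total counts, from 13003087 to 40240680. Promoter sequences came from RefSeq on GRCm38.p6.

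The members and lists were chosen with earlier results of these data known, the lists from general knowledge. Named were the 10 members, at most 4 genes per list with the largest absolute DEX difference averaged over exposures in either tissue, and the 3 genes most like each member. Results were recomputed with DESeq2 1.42.0, its size factors, the quasi-likelihood test of edgeR, other filters, all libraries in 1 fit, each tissue apart, blocks of 20 codes and sample quality weights. Fits without single libraries or the 8 libraries, fits within ranges of codes, and the pairing of adjacent codes were added after seeing the data. The fits were tested on simulated data, in which libraries were drawn independently of each other. The authors' own comparisons were not used.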

Additional observations from a re-analysis of the deposited data

Results flagged for a closer look

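In groups of 10 libraries, 28 of 180 combinations of a member and a group (15.6%) had 1 library whose gap to the nearest other exceeded Dixon's 95% critical value. For independent, normally distributed values about 1 in 20 would do so. The test was run on CPM, where all flagged libraries but X39 stood high, and libraries of adjacent codes deviate together. The 15.6% can therefore not be set against that rate. Libraries of both tissues with adjacent codes recur among them. The values below are CPM, each followed by the median of the other libraries of its group.

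Fkbp5 stood high in X63 and X64, airway and parenchyma after HDM at 3 weeks, with 111.8 against 46.7 CPM and 106.65 against 47.1 CPM. It stood high in X151 and X152 of HDM.AIR.DEX, with 74.5 against 32.3 CPM in the airway and 70.6 against 35.4 CPM in the parenchyma. It also did so in X175, a PBS.CS.DEX airway (82.4 against 36.9 CPM), and in X159 and X160 of HDM.CS.DEX, with 84.9 against 38.3 CPM in the airway and 92.2 against 40.5 CPM in the parenchyma.

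Tsc22d3 had 264 against 76.7 CPM in X167, a PBS.AIR.DEX airway. In HDM.AIR.DEX it had 224 against 85.7 CPM in X151 and 299 against 87.6 CPM in X152. In HDM.CS without DEX it had 212 against 111.3 CPM in airway X97 and 209.98 against 147.4 CPM in parenchyma X98. The HDM.CS.DEX airway X39 was low, with 59.6 against 84.7 CPM.

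Zbtb16 had 29.7 against 5.63 CPM in X63, 33.3 against 9.06 CPM in X167 and 20.9 against 5.77 CPM in X152. It had 97.3 against 15.3 CPM in X133, a PBS.CS airway, and 36.7 against 9.55 CPM in X176, a PBS.CS.DEX parenchyma. In HDM.CS.DEX it had 28.5 against 6.81 CPM in X159 and 20.6 against 6.32 CPM in X160. Per1 had 57.5 against 15.3 CPM in X167.

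Klf9 had 131.4 against 71.6 CPM in X167, 84.1 against 60.4 CPM in X194, a PBS.CS parenchyma, and 64.5 against 46.3 CPM in X117, an HDM.CS airway. Hsd11b1 had 208.5 against 142.5 CPM in X176. Cdkn1a had 130.1 against 71.4 CPM in X168, a PBS.AIR.DEX parenchyma, 92.8 against 52.2 CPM in X159 and 117.02 against 58.8 CPM in X160.

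The DEX difference itself differed between smoke and air, tested as an interaction in limma, for Dusp1 in the airway (log2 -0.62, adjusted p = 0.0053), Dusp1 in the parenchyma (-0.47, adjusted p = 0.016) and Sgk1 in the parenchyma (-0.49, adjusted p = 0.0036).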

How the results depend on the processing

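No alternative reversed a called member difference averaged over exposures. Within codes 1 to 60 alone, 3 DEX calls in single exposures turned sign, all to values near 0. Of 33 DEX calls of members, edgeR kept 32, DESeq2 33, DESeq2's size factors 33, the CPM filter of 10 33, no filter 27, all libraries in 1 fit 30, separate tissues 32, the block of 20 codes 33, quality weights 27, the fit without the library of lowest depth (X32) 32 and the fit without the 8 DEX libraries 30. Within codes 1 to 60, 61 to 120 and above 120 alone, 10, 12 and 15 of the 30 calls other than interactions were kept, with 3 or 4 libraries a group. Counts of members called changed by over 1.5 times in 38 combinations of a comparison and a setting and stayed closer in 228. Where the cause is not in the alternative's construction, it was not tested.

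With DEX in PBS.AIR airways (3 members), quality weights called 1. In PBS.CS airways (1) all libraries in 1 fit called 0. In HDM.CS airways (0) edgeR, size factors and the CPM filter called 1, DESeq2, quality weights and the fit without the 8 libraries 2, and the block 3. In HDM.AIR parenchyma (4) quality weights called 2, in PBS.CS parenchyma (1) DESeq2 and the block 2 and quality weights 3, and in HDM.CS parenchyma (2) no filter 1. Averaged over exposures, no filter left 3 of 5 in the airway. The DEX by HDM interaction (0) had 1 member, Dusp1, in the airway by DESeq2, size factors, the CPM filter, the block, quality weights and without the 8 libraries, and in the parenchyma by the CPM filter, separate tissues, the block, quality weights and without the 8 libraries. The DEX by CS interaction had 2 in the airway (1) by DESeq2, the CPM filter and the block, and 1 in the parenchyma (2) with all libraries in 1 fit. PBS.CS against PBS.AIR airways (2) gave 4 by edgeR, DESeq2 and the block, and 1 with no filter, all libraries in 1 fit or without X32. Airway against parenchyma at 11 weeks (7) gave 4 with no filter.

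The labels number libraries singly and tie none to a mouse, so pairs rest on adjacent codes alone. Over these, 75 of 80 pairs at 11 weeks had deviations over all genes correlated above 0.1 (0.06 to 0.70), and 14 of 21 at 3 weeks (-0.24 to 0.48). With such pairs as a block, tissue calls were 10 at 11 weeks and 7 at 3 weeks, against 7 and 5, and the DEX by tissue interaction called 1, Zbtb16, against 0.

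The hour of sampling, the DEX dose and the interval to sampling are not given in the sources used here, and their part in the DEX values was not tested. Bulk levels mix cell types. Within 1 range, groups hold 3 or 4 libraries.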
